A study of Homo sapiens with 2 samples.

Results

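Small nucleolar RNA host genes were described in SF-539 cells, a human glioblastoma (GBM) cell line, with and without knockdown of FKBP9, an immunophilin of the endoplasmic reticulum. The members were the genes of the deposited table whose name is SNHG followed by digits, together with GAS5, ZFAS1 and EPB41L4A-AS1, whatever their biotype. They made up 28 of 58735 genes, with 27 symbols, because SNHG28 is listed under 2 identifiers. The cells had been transduced with a lentiviral pGIPZ vector carrying either a nontargeting hairpin (shControl) or a hairpin against FKBP9 (shFKBP9), and stable cells were selected with puromycin. Both conditions therefore shared the line, the vector and the selection, and differed in the hairpin. The study used several hairpins against FKBP9 and the labels do not say which of them was sequenced, so the values stand for 1 knockdown line. There was 1 library per condition.

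A small nucleolar RNA (snoRNA) guides the chemical modification of ribosomal RNA, box C/D snoRNAs directing ribose methylation and H/ACA snoRNAs directing pseudouridylation, while the related scaRNAs act on spliceosomal RNA in Cajal bodies. In human cells most snoRNAs lie in introns and are released when the transcript of their host gene is spliced. Some hosts encode proteins, and others, among them most of the genes described here, yield a spliced RNA with little coding capacity that is often read by ribosomes and then destroyed by nonsense-mediated decay (NMD). Many host transcripts begin with a 5′ terminal oligopyrimidine (TOP) stretch, the start signal that they share with messengers of ribosomal proteins.

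Levels were given as FPKM, fragments scaled by gene length and by library size, so that genes could be compared per length. All values above 0 were whole multiples of 1 step once multiplied by the gene length, and fragments could thus be counted: 18116873 lay on genes in shControl and 17158514 in shFKBP9. Each difference is a log2 ratio with shFKBP9 over shControl, after 0.1 was added to either FPKM, and each interval is an exact Clopper-Pearson interval at 95% of the fragments without that addition, which covers counting error only. FKBP9 had 4659 fragments (49.8 FPKM) in shControl and 415 (4.68 FPKM) in shFKBP9, a log2 ratio of -3.38 (interval -3.56 to -3.27). The median log2 ratio over the 12741 genes that reached 1 FPKM in a library was -0.02. The labels call the cells epithelial glioma cells. Of the markers of glia, VIM had 25852 fragments in shControl, NES 237, OLIG2 48, GFAP 43, SOX2 4 and S100B 0. Of the epithelial markers KRT8 had 159 in shControl, EPCAM 11, KRT18 9 and CDH1 0. Of the other markers, PTPRC had 0 fragments in both libraries and CD74 had 564 and 527, while the keratinocyte genes KRT14 and KRT5 had 1 and 8 fragments in shControl and 24 and 17 in shFKBP9. Their part in the ratios of the host genes was not tested.

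In the human genome the starts of several host genes carry recognisable letters, and they are shown here because the annotation starts the host transcripts at them. RefSeq promoters on GRCh38.p14 matched 23 of the 27 symbols, and 60 bases are printed for each gene shown, 40 before the annotated start and 20 from it, 5′ to 3′ on the strand of the gene. Capitals before the start mark TATANAA, sought from 50 to 10 bases before it, and capitals at the start mark a C followed by at least 4 bases that are each C or T, opening within 5 bases of the start. The first 5 genes have both sets of letters, SNHG8 and SNHG4 have the pyrimidines alone, and SNHG10 and SNHG1 have neither by these definitions. The RefSeq start lies 1259 bases from that of the table for SNHG12 and 464 bases for ZFAS1. For GAS5, not printed here, it lies 163 bases away.
SNHG5, chr6:85678714-85678773 (minus strand): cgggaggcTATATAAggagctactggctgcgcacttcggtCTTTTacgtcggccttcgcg
SNHG19, chr16:2155339-2155398 (minus strand): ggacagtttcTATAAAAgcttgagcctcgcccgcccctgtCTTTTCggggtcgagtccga
ZFAS1, chr20:49278602-49278661 (plus strand): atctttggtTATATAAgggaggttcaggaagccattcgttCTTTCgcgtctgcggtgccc
SNHG7, chr9:136728165-136728224 (minus strand): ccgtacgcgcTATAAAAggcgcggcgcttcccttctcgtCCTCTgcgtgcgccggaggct
SNHG12, chr1:28581854-28581913 (minus strand): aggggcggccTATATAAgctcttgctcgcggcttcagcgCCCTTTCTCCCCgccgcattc
SNHG8, chr4:118278722-118278781 (plus strand): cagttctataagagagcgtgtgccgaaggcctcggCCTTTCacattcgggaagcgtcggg
SNHG4, chr5:139274061-139274120 (plus strand): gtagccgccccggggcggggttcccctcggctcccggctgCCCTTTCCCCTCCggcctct
SNHG10, chr14:95534853-95534912 (minus strand): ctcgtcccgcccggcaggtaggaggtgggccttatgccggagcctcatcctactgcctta
SNHG1, chr11:62855866-62855925 (minus strand): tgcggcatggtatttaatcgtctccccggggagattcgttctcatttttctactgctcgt

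The pyrimidine stretch opened at the start in 9 of the 23 matched genes (39.1%), against 19.7% of 35116 RefSeq promoters. When the opening was allowed anywhere within 44 bases of the start, it was present in 19 of 23, against 73.9% of all promoters. TATANAA was present in 5 of 23 (21.7%), against 1.69% of all. All 5 genes with TATANAA, SNHG5, SNHG19, ZFAS1, SNHG7 and SNHG12, also had the pyrimidines at the start. Searched on both strands of the 300 bases, TGATGNAA was in 0 of the 23 genes and in 3.62% of all promoters, and CACGTG was in SNHG7 alone of the 23 and in 7.26% of all. A match describes letters in the window and is not a measured site of binding or of transcription. No stretch is printed for SNHG6, SNHG9, SNHG15 or SNHG25.

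The host genes covered a wide range of levels, and SNHG6 and SNHG5 stood at the top in both libraries. A fragment was found on 25 of the 28 genes, and 20 reached 1 FPKM in a library. Of these, 9 had at least 10 FPKM in both. SNHG27, SNHG22 and the copy of SNHG28 with the identifier ENSG00000188004 had 0 fragments in both libraries. A count of 0 allows up to 3 fragments as a one-sided limit, which for SNHG27 is 0.138 FPKM in shControl and 0.146 in shFKBP9, and its two-sided exact interval reaches 0.170 and 0.179 FPKM. SNHG26 had 1 fragment in shControl and 0 in shFKBP9. All members together held 12264 fragments in shControl and 11717 in shFKBP9, or 0.0677% and 0.0683% of the fragments on genes, a log2 ratio of 0.01 (interval -0.03 to 0.05). Without SNHG5 the log2 ratio of the sum was -0.036, and with rescaling to TPM it was -0.0073. The 5 members with most fragments made up 56.9% of this sum in shControl and 58.7% in shFKBP9.

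**Figure D1:**
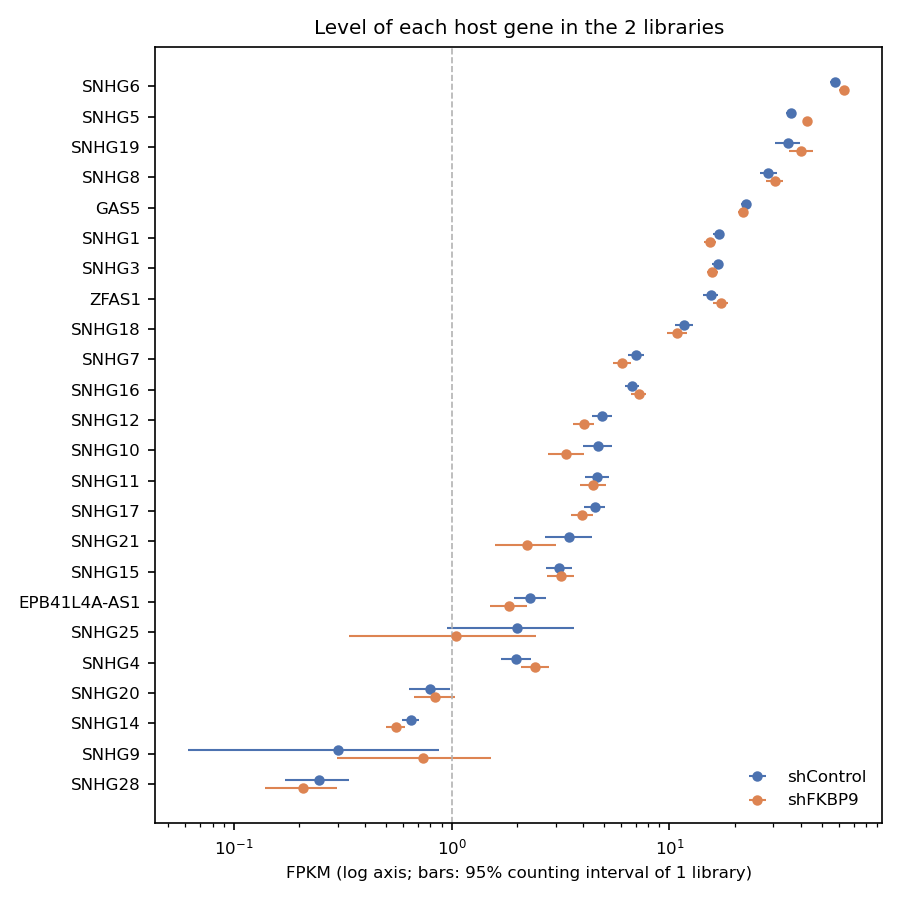
FPKM on a log axis of each host gene with at least 10 fragments, in the shControl and the shFKBP9 library, with bars for exact 95% intervals of the fragments, which cover counting error only. The dashed line marks 1 FPKM. SNHG6 is highest in both libraries, at 57.5 FPKM in shControl and 63.2 FPKM in shFKBP9, and for most genes the 2 points lie close together.

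No host gene at 1 FPKM or more differed by 2-fold between the libraries. Past 2-fold lay 2.02% of all genes at that level in the direction higher in shFKBP9 and 2.19% in the direction lower. Among the 20 host genes, 8 had a log2 ratio above 0 and 12 below, the median was -0.07 with quartiles of -0.23 and 0.11, and the values ran from -0.86 for SNHG25 to 0.28 for SNHG4. Over all genes at that level the quartiles were -0.17 and 0.14. The median size of the log2 ratio, sign aside, was 0.15 in the 19 host genes with at least 1 FPKM and at least 100 fragments, and 0.14 in all 10984 such genes. Of the 21 members with at least 100 fragments in both libraries together, whatever their FPKM, 20 had an interval that lay wholly within 2-fold, and SNHG21 was the exception.

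A two-sided exact binomial test of the fragments with Benjamini-Hochberg adjustment over the 17105 genes with at least 10 fragments compared the 2 libraries, not the conditions. It called 9.93% of all genes higher in shFKBP9 and 11.8% lower, 21.8% in either direction. Of the 24 host genes tested it called SNHG5 higher and SNHG10 lower, which is 8.33%. The difference from the share of all genes was not tested. Without adjustment, 8 of the 24 host genes had an exact binomial p under 0.05, 2 higher and 6 lower, against 31.4% of all genes tested. Under a conditional negative binomial test that assumes a dispersion of 0.01 or of 0.04 between libraries, neither SNHG5 nor SNHG10 was called. At these dispersions that test called 58 and 5 of all 17105 genes, so few that a missing call says little about either gene.

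**Figure D2:**
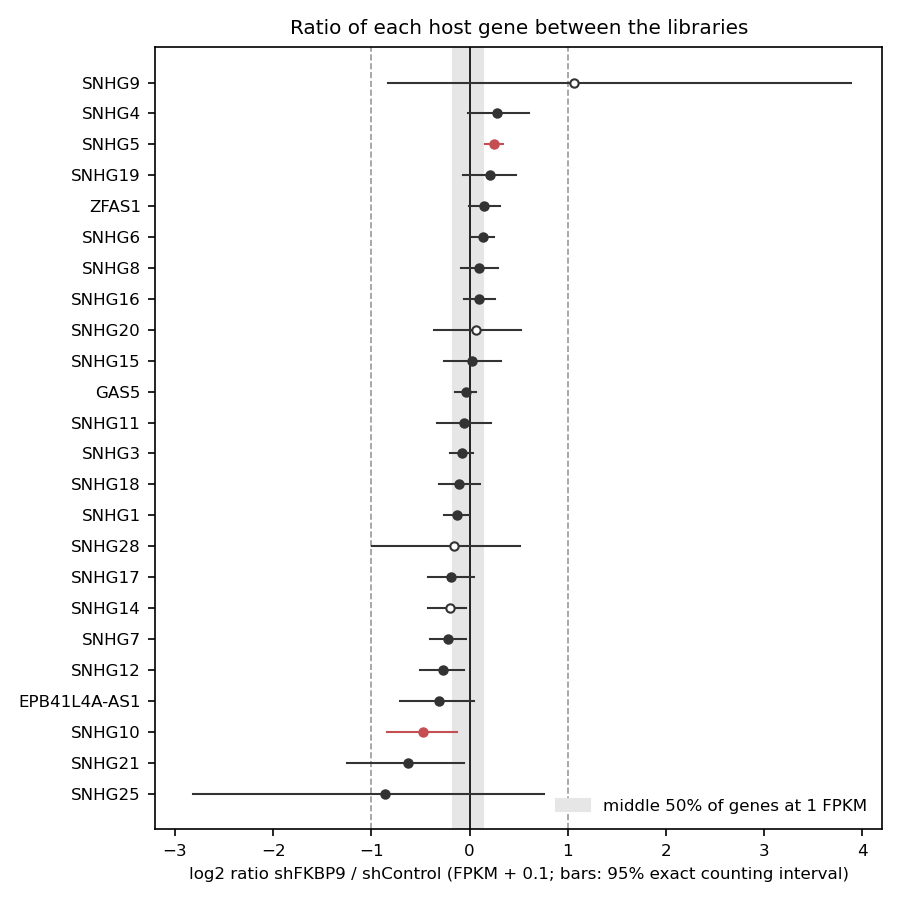
Log2 ratio of FPKM, shFKBP9 against shControl, of each host gene with at least 10 fragments, with exact 95% intervals that cover counting error only. Red marks the genes called by the exact binomial test, open points lie under 1 FPKM, dashed lines mark 2-fold and grey the quartiles of all genes at 1 FPKM. All host genes with at least 1 FPKM have ratios between -1 and 1, and the widest intervals belong to the genes with few fragments, SNHG9 and SNHG25.

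Among hosts of box C/D snoRNAs, SNHG5 gave the only call in the direction higher. It lies at chr6:85660950-85678748 on the minus strand of hg38. In shControl it had 1830 fragments, or 36.0 FPKM, and in shFKBP9 2068, or 42.9 FPKM. The log2 ratio was 0.25 (interval 0.16 to 0.34, exact binomial test with Benjamini-Hochberg adjustment, adjusted p = 9.54e-07), and SNHG5 held 14.9% of all host gene fragments in shControl and 17.6% in shFKBP9.

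SNHG6, a host of SNORD87 with the highest level of all members, had 1299 fragments in shControl and 1353 in shFKBP9, or 57.5 and 63.2 FPKM. Its log2 ratio of 0.14 (interval 0.02 to 0.25) did not pass the adjusted threshold of the exact binomial test with Benjamini-Hochberg adjustment (adjusted p = 0.0672). SNHG19, a short gene that hosts SNORD60, had 34.9 FPKM in shControl and 40.2 in shFKBP9, a log2 ratio of 0.20 from 216 and 236 fragments (interval -0.07 to 0.48). ZFAS1, which lies beside ZNFX1 and hosts snoRNAs of the SNORD12 family, had 15.5 and 17.2 FPKM from 629 and 662 fragments, a log2 ratio of 0.15 (interval -0.01 to 0.31). All 3 genes had higher values in the shFKBP9 library, with an interval that covered 0 for SNHG19 and ZFAS1 and one that did not for SNHG6. The exons of SNHG6 overlap those of other genes over 62.4% of their bases in GENCODE release 44 and those of ZFAS1 over 43.1%. For SNHG25, SNHG8, SNHG7 and SNHG16 the share was 39.7%, 39.6%, 35.8% and 31.1%. Fragments in such overlaps could belong to either gene. The strand setting of the counting is not given in the sources used here.

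GAS5, a host gene named for its accumulation in growth-arrested cells, had 1472 fragments in shControl and 1359 in shFKBP9. This is 22.4 and 21.8 FPKM, a log2 ratio of -0.04 (interval -0.15 to 0.07). SNHG1, a host of box C/D snoRNAs whose spliced RNA was among the earliest examples of a host without a protein product, had 1143 and 989 fragments, 16.8 and 15.3 FPKM, and a log2 ratio of -0.13 (interval -0.26 to -0.01). The interval of GAS5 covered 0 and that of SNHG1 did not, while neither was called. SNHG16 had 6.75 FPKM in shControl and 7.23 in shFKBP9, a log2 ratio of 0.10 (interval -0.06 to 0.26). SNHG18 had 11.7 and 10.8 FPKM, a log2 ratio of -0.10 (interval -0.31 to 0.10). For SNHG16 and SNHG18 the intervals covered 0.

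The 9 hosts of H/ACA snoRNAs only included no gene that was called in either direction. Of all genes tested 21.8% were called, and 30.0% of those with at least 100 fragments, so with so few hosts this count says little about the group. SNHG8 was the highest, with 28.4 FPKM in shControl and 30.5 in shFKBP9 from 475 and 483 fragments, and a log2 ratio of 0.10 (interval -0.08 to 0.29). SNHG3, the host of SNORA73A and SNORA73B, had 1234 and 1106 fragments, 16.7 and 15.8 FPKM and a log2 ratio of -0.08 (interval -0.20 to 0.04). Both intervals covered 0. SNHG7 had 555 and 451 fragments, 7.05 and 6.05 FPKM, and a log2 ratio of -0.22 (interval -0.41 to -0.04). By the exact binomial test with Benjamini-Hochberg adjustment SNHG7 was not called (adjusted p = 0.0643).

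The remaining H/ACA hosts had fewer fragments and wider intervals. SNHG17, a host of SNORA71 copies, had 4.54 FPKM in shControl and 3.98 in shFKBP9, a log2 ratio of -0.19 with an interval from -0.42 to 0.04. Its neighbour on chromosome 20, SNHG11, had 4.65 and 4.47 FPKM (log2 ratio -0.06, interval -0.33 to 0.22). SNHG15 had 3.12 and 3.18 FPKM (log2 ratio 0.03, interval -0.26 to 0.315), so that its 2 values were nearly equal. SNHG4, which shares its locus with MATR3, had 160 fragments in shControl and 186 in shFKBP9, at 1.98 and 2.42 FPKM, and the highest log2 ratio of the genes at 1 FPKM, 0.28 (interval -0.02 to 0.61). EPB41L4A-AS1, which runs antisense to EPB41L4A, had 139 and 105 fragments, 2.30 and 1.83 FPKM, and a log2 ratio of -0.31 (interval -0.71 to 0.05). All 5 intervals covered 0, and exons of EPB41L4A-AS1 overlap those of other genes over 54.3% of their bases.

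Genes that host a scaRNA or snoRNAs of both kinds included 4 with at least 1 FPKM, described here, and 2 scaRNA hosts below it, SNHG20 and SNHG22. SNHG10, the host of SCARNA13, lies at chr14:95532297-95534872 on the minus strand of hg38. In shControl 165 fragments lay on it and in shFKBP9 112, at 4.69 and 3.35 FPKM, and it was the only host gene called lower (log2 ratio -0.47, interval -0.84 to -0.13, adjusted p = 0.0340 by the exact binomial test with Benjamini-Hochberg adjustment). SNHG21, the host of SCARNA15, had 66 and 40 fragments, 3.46 and 2.21 FPKM, and a log2 ratio of -0.62 (interval -1.25 to -0.06). SNHG21 was not called (adjusted p = 0.0960 by the same exact test), and 72.9% of its exon bases overlap another gene. SNHG12 had 379 and 296 fragments, 4.91 and 4.04 FPKM, and a log2 ratio of -0.27 (interval -0.50 to -0.06, adjusted p = 0.0550 by the same exact test). SNHG25 had 10 and 5 fragments, 1.99 and 1.05 FPKM, so few that its log2 ratio of -0.86 carried an interval from -2.82 to 0.76. Of these 4 genes SNHG10 alone passed the adjusted threshold, and all 4 had fewer fragments in shFKBP9.

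Grouped by the small RNAs within their span, the 7 box C/D hosts at 1 FPKM had 5 ratios above 0 and 2 below with a median of 0.14. The 8 H/ACA hosts had 3 above and 5 below with a median of -0.07. The 2 scaRNA hosts at that level and the 2 hosts of both kinds had ratios below 0, with medians of -0.55 and -0.57. GAS5, a known box C/D host with a log2 ratio of -0.04, is in none of these groups, because the search by position in the rows used here returned 0 small RNA genes for it. Grouped by their starts, the 9 genes with the pyrimidines there had 5 ratios above 0 and 4 below with a median of 0.10, and the 8 without them at 1 FPKM had 1 above and 7 below with a median of -0.11. The groups by start describe letters at the RefSeq start only, which for GAS5, counted without the pyrimidines, lies 163 bases from that of the table. Of the 8 genes without them, all but SNHG10 had such a stretch opening within 44 bases, as did 73.9% of all promoters. The differences between all these groups were not tested. The groups by start overlap, since the values of genes with the pyrimidines ran from -0.27 to 0.28 and those without from -0.62 to 0.10.

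The ratios were also set beside level and gene length, with no test. Of the 10 host genes with the highest levels 6 had a ratio above 0 and the median was 0.10, and of the other 10 at 1 FPKM 2 had a ratio above 0 and the median was -0.25. The 10 genes up to 3 kilobases had 5 ratios above 0 and 5 below with a median of 0.02, and the 10 longer genes had 3 above and 7 below with a median of -0.11. Over all genes at 1 FPKM the medians on either side of 3 kilobases were -0.01 and -0.02. Over all genes with at least 1 FPKM and at least 100 fragments the 76 shortest, up to 500 bases, had a median of 0.13, whereas the 1413 genes between 2001 and 3000 bases had a median of -0.02. SNHG19 is within the shortest class, and its log2 ratio of 0.20 lay inside the quartiles of that class, -0.09 and 0.24. The part of length in these ratios was not tested.

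Members under 1 FPKM were measured with few fragments per base. SNHG14, a very long transcript of the Prader-Willi region that carries the SNORD115 and SNORD116 arrays in the annotation, had 510 fragments in shControl and 412 in shFKBP9 over a length of 43324 bases. This is 0.650 and 0.554 FPKM, a log2 ratio of -0.20 (interval -0.42 to -0.04), which was not called (adjusted p = 0.0678 by the exact binomial test with Benjamini-Hochberg adjustment). SNHG20 had 88 fragments in each library, at 0.798 and 0.842 FPKM. The copy of SNHG28 with the identifier ENSG00000256029 had 36 and 29 fragments, and 91.0% of its exon bases overlap another gene. SNHG9, a short gene beside RPS2, had 3 fragments in shControl and 7 in shFKBP9. Its log2 ratio of 1.07 had an interval from -0.83 to 3.88, so a difference was not detectable at this depth.

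Small RNA genes inside the hosts were listed in the same table, and their sequences are printed where fragments were most numerous. On the strand of their host lay 136 such genes in 26 members, 84 of them in SNHG14, and 23 genes in 12 members had a fragment. SNORD104 in SNHG25 had 24 fragments in shControl and 20 in shFKBP9, more than the 10 and 5 fragments of SNHG25 itself. SNORA71C in SNHG17 had 21 and 11 fragments, and SNORA73B in SNHG3 had 17 and 15. The sequences are transcripts of GENCODE release 44, read 5′ to 3′, with positions on hg38 from the deposited table. Capitals mark box C and box D in SNORD104 and the ACA of the other genes.
SNORD104, chr17:64146083-64146152 (plus strand): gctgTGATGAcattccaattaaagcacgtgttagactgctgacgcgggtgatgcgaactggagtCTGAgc
SNORA71C, chr20:38429670-38429803 (minus strand): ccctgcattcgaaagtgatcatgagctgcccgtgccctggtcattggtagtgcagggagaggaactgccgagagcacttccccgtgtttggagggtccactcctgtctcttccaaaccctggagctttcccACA
SNORA73B, chr1:28508559-28508762 (plus strand): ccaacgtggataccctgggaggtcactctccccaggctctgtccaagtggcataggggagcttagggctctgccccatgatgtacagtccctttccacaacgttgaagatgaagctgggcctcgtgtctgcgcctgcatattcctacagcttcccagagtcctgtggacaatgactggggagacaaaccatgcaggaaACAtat

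In SNORA71C the ACA closes the sequence, and in SNORA73B 3 bases follow it. SNORD99 in SNHG12 had 13 fragments in shControl and 5 in shFKBP9. SCARNA13 in SNHG10 had 5 and 3. The 4 genes SNORA71A to SNORA71D, which are related copies so that fragments may be split among them, had 42 fragments in shControl and 26 in shFKBP9 together. Over all 23 genes with a fragment the sums were 138 and 95, a log2 ratio of -0.46 (interval -0.85 to -0.07). Over all 992 snoRNA and scaRNA genes of the table the sums were 553 and 519, a log2 ratio of -0.01 (interval -0.19 to 0.16). These sums rest on few fragments, and fragments of a mature snoRNA and of the unspliced host cannot be told apart in them.

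Several host genes share a start region with a protein-coding gene on the other strand, and in 2 of these pairs at 1 FPKM or more the partner was called while the host was not. SNHG1 starts 188 bases from SLC3A2, the heavy chain of amino acid transporters. SLC3A2 had 2733 fragments in shControl and 3230 in shFKBP9, at 29.2 and 36.3 FPKM, a log2 ratio of 0.32 (interval 0.24 to 0.39, adjusted p = 1.40e-15 by the exact binomial test with Benjamini-Hochberg adjustment), and that of SNHG1 was -0.13. SNHG19 starts 340 bases from TRAF7, a ubiquitin ligase. TRAF7 had 1035 and 761 fragments, 12.7 and 9.87 FPKM, a log2 ratio of -0.36 (interval -0.50 to -0.23, adjusted p = 1.81e-06 by the same exact test), and that of SNHG19 was 0.20. In both pairs the intervals of host and partner do not overlap, with the partner above the host for SNHG1 and below it for SNHG19.

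**Figure D3:**
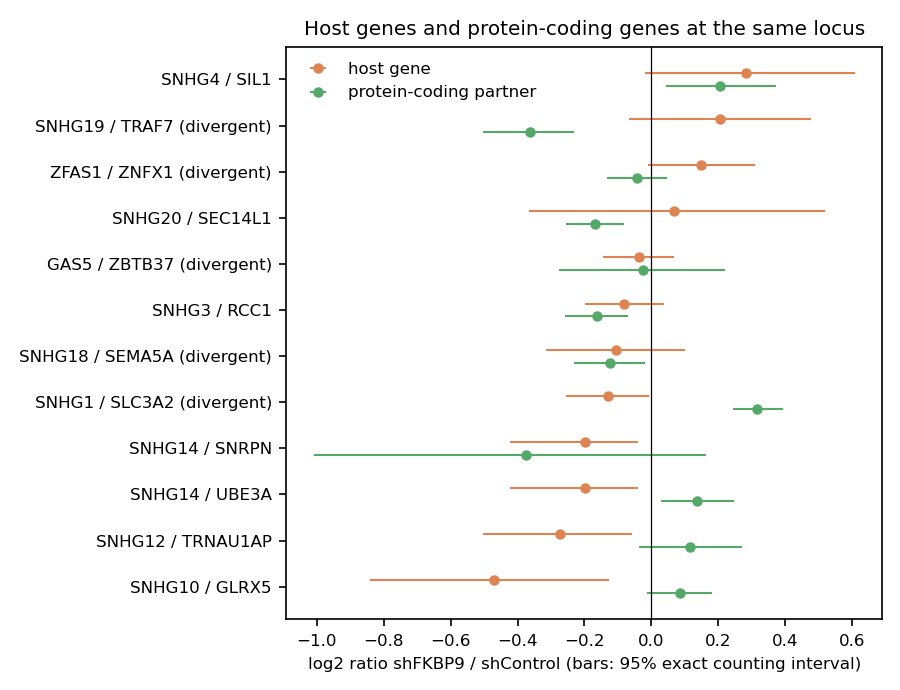
Log2 ratio of FPKM, shFKBP9 against shControl, of host genes and of the protein-coding genes that start within 1 kilobase on the other strand (divergent) or overlap them, for pairs in which each gene has at least 100 fragments, with exact 95% intervals that cover counting error only. SLC3A2 lies at 0.32 above SNHG1 at -0.13, and TRAF7 at -0.36 lies below SNHG19 at 0.20.

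In the other pairs with a host at 1 FPKM or more the partner was not called. ZFAS1 starts 248 bases from ZNFX1, which had 2075 and 1910 fragments and a log2 ratio of -0.04 (interval -0.13 to 0.05). GAS5 starts 800 bases from ZBTB37, which had a log2 ratio of -0.03 (interval -0.28 to 0.22). SNHG18 starts 125 bases from SEMA5A, a semaphorin, with a log2 ratio of -0.12 (interval -0.23 to -0.02). In these 3 pairs the intervals of host and partner overlap. SNHG9, with a log2 ratio of 1.07 from 3 and 7 fragments, starts 99 bases from RPS2, a ribosomal protein gene, which had 24300 and 20520 fragments and a log2 ratio of -0.17 (interval -0.19 to -0.14, adjusted p = 3.05e-32 by the exact binomial test with Benjamini-Hochberg adjustment). SNHG22, at 0 in both libraries, starts 63 bases from ACAA2, which had 668 and 557 fragments.

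Some hosts overlap a protein-coding gene. GLRX5, which overlaps SNHG10 on the other strand and acts in iron-sulfur cluster assembly, had 1712 fragments in shControl and 1721 in shFKBP9, a log2 ratio of 0.08 (interval -0.01 to 0.18) that lay above the interval of SNHG10. TRNAU1AP, which overlaps SNHG12, had a log2 ratio of 0.11 (interval -0.04 to 0.27), also above the interval of its host. RCC1, which overlaps SNHG3 on the same strand, had 1982 and 1678 fragments and a log2 ratio of -0.16 (interval -0.26 to -0.07, adjusted p = 0.00490 by the exact binomial test with Benjamini-Hochberg adjustment). That interval overlaps the one of SNHG3. UBE3A, which overlaps SNHG14 on the other strand, had 1318 and 1375 fragments and a log2 ratio of 0.14 (interval 0.03 to 0.25). SIL1, which overlaps SNHG4, had 0.21 (interval 0.04 to 0.37), and SEC14L1, which overlaps SNHG20, had -0.17 (interval -0.25 to -0.08, adjusted p = 0.00105 by the same exact test). Without a known strand setting, reads of overlapping genes cannot be told apart.

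Other hosts, found by position as genes that hold a snoRNA or scaRNA on their strand, gave the comparison group. Of 273 protein-coding hosts 199 had at least 1 FPKM and a median log2 ratio of -0.00, with 97 ratios above 0 and 102 below, and none was past 2-fold. Of the 223 tested, 36.3% were called, 41 higher and 40 lower. These hosts held 835640 fragments in shControl, far more than the SNHG genes. Among all genes with at least 100 fragments 30.0% were called, and among such members 2 of 21. EEF2, the translation elongation factor, had 645.8 FPKM in shControl and 575.2 in shFKBP9 with a log2 ratio of -0.17, and RPL3 had 0.09. The 28 ribosomal protein hosts had a median of 0.01, with 7 called in each direction. The 66 other noncoding hosts included 11 at 1 FPKM with a median of 0.01. Of these, DANCR and LRRC75A-AS1 were called lower, with log2 ratios of -0.25 and -0.13, and AC010327.3 was called higher at 0.85 from 43 and 76 fragments. HMGN2P46, under 1 FPKM, was also called lower, at -1.20 from 46 and 16 fragments. Of the 22 tested, 1 was called higher and 3 lower, 18.2% against 21.8% of all genes tested.

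Genes that newer annotation names as SNHG but the table lists under an older name were not members, and were looked up after the table had been read. LRRC75A-AS1, now SNHG29, had 3371 fragments in shControl and 2924 in shFKBP9, at 49.5 and 45.3 FPKM, a log2 ratio of -0.13 (interval -0.20 to -0.06, adjusted p = 0.00343 by the exact binomial test with Benjamini-Hochberg adjustment). C6orf48, now SNHG32, had 1159 and 1274 fragments, 35.5 and 41.2 FPKM, a log2 ratio of 0.21 (interval 0.10 to 0.33, adjusted p = 0.00235 by the same exact test). LINC02001, now SNHG30, had 148 and 149 fragments, and AC016708.1, now SNHG31, had 20 and 14. LRRC75A-AS1 and C6orf48 had levels among the highest of the SNHG genes, and all 4 differed by less than 2-fold.

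Genes that make, assemble or remove the products of host genes were counted from lists, with calls by the same exact binomial test. These lists and those that follow were chosen with earlier results of these data known. Of 8 core proteins of the snoRNA particles, NOP58, a box C/D protein, was called higher (log2 ratio 0.29), and NHP2 of the H/ACA particle (-0.13) and SNU13 of the box C/D particle (-0.14) were called lower. The median was -0.01, and 37.5% of the list was called against 21.8% of all genes tested and 30.0% of those with at least 100 fragments. Of 10 assembly factors 0 were called higher and 2 lower, the nucleolar chaperone NOLC1 (-0.14) and the ATPase RUVBL1 (-0.16), with a median of -0.11 and 20% called, near the share of all genes tested. Of 18 NMD factors 2 were called higher, MAGOH (0.19) and UPF3A (0.12), and 5 lower. The 5 were EIF4A3 (-0.16), the helicase UPF1 (-0.21), CASC3 (-0.12), the kinase SMG1 (-0.17) and the nuclease SMG6 (-0.35). Over all NMD factors the median was -0.08 and 38.9% were called.

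Protein-coding transcripts known as NMD targets were a list of their own, and its difference from the host genes was not tested. Of 9, 6 were called higher and 0 lower, against 9.93% and 11.8% of all genes tested and 30.0% in either direction of those with at least 100 fragments, with a median of 0.20. ATF4, the stress transcription factor, had 92.7 FPKM in shControl and 129.7 in shFKBP9 with a log2 ratio of 0.48 (interval 0.43 to 0.54), and DDIT3 (CHOP) had 0.47, GADD45B 0.47, ATF3 0.37, GADD45A 0.20 and TBL2 0.19. The paper measured DDIT3 by PCR among genes of endoplasmic reticulum stress that rose with the knockdown. Whether the ratios of this list relate to NMD or to that stress was not tested. The NMD-sensitive hosts GAS5, ZFAS1 and SNHG1 had log2 ratios of -0.04, 0.15 and -0.13 beside this list. Of 10 regulators of TOP messengers 3 were called higher, EIF4EBP1 (0.24), EIF4EBP2 (0.27) and TIA1 (0.36), and 4 lower, the kinase MTOR (-0.33), its partner RPTOR (-0.13), the TOP-binding LARP1 (-0.19) and CNBP (-0.08). That is 70% of the list, against 21.8% of all genes tested and 30.0% of those with at least 100 fragments.

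Long noncoding RNAs without the SNHG name were set beside the hosts from a list of 14, of which 8 had at least 1 FPKM. The exact binomial test called 4 of the 11 tested higher and 1 lower, against 9.93% and 11.8% of all genes tested. Of all genes with at least 100 fragments it called 30.0% in either direction. NORAD had 5995 fragments in shControl and 6998 in shFKBP9, a log2 ratio of 0.30, and OIP5-AS1 and CYTOR had 0.30 and 0.28. NEAT1, the scaffold of paraspeckles, had 0.11. DANCR, itself a snoRNA host, had 940 and 748 fragments and was the gene called lower, at -0.25. The median of the 8 was 0.10, and that of the 20 host genes was -0.07. Over all genes at 1 FPKM, the median was 0.00 for 390 lincRNAs, -0.05 for 515 antisense genes and -0.07 for 61 processed transcripts, the biotypes that the 20 host genes carry in the table. With 1 library per condition none of these differences has a replicate check.

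**Figure D4:**
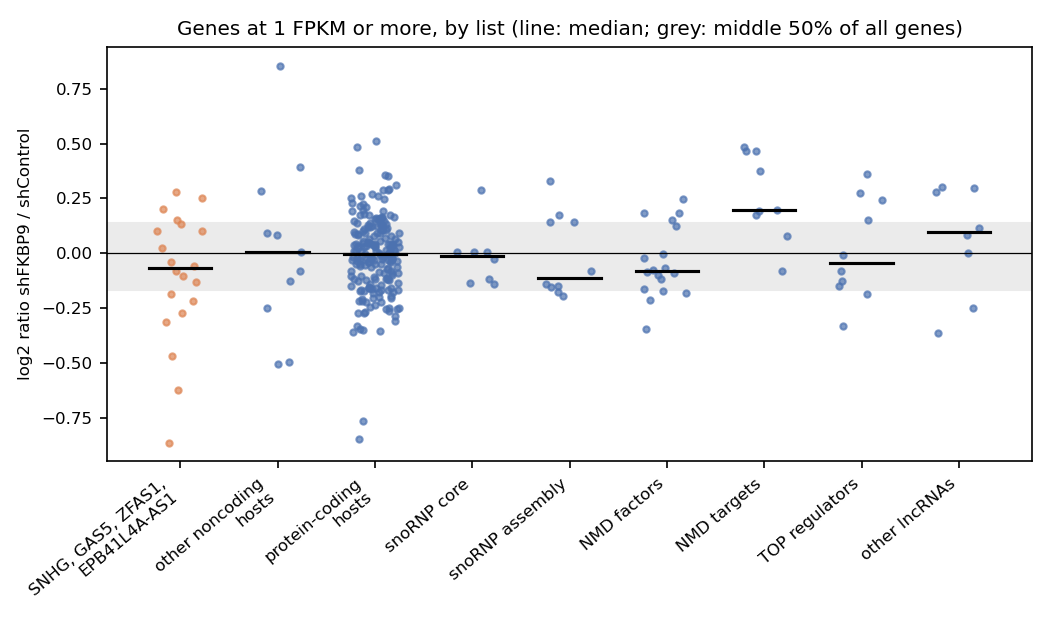
Log2 ratio of FPKM, shFKBP9 against shControl, of each gene at 1 FPKM or more in the host genes and the lists set beside them, with a line at the median of each list and grey for the quartiles of all genes. The SNHG genes have a median of -0.07, the protein-coding hosts of -0.00 and the protein-coding NMD targets of 0.20.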

How the data were processed

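RNA of SF-539 cells with a control hairpin or a hairpin against FKBP9 was sequenced with 1 library per condition. Per the submitters' processing notes and the methods, the authors aligned reads to hg38 with HISAT2 2.0.5, counted them per gene with featureCounts 1.5.0-p3 and used edgeR for the comparison. The authors deposited FPKM, which divides fragments by length and library size, with 0 further columns of values per library. The annotation release and the strand setting are not given in the sources used here.

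Fragments were recovered as FPKM times length divided by the smallest step of a library, and all values above 0 were whole within 1e-06. One fragment on 1 kilobase equals 0.0552 FPKM in shControl and 0.0582 FPKM in shFKBP9. Log2 ratios, exact intervals and exact binomial tests were computed with scipy 1.17.1 in Python 3.11.15 and tested on simulated data. No test between the conditions was possible. Binomial calls used an adjusted p under 0.05, and the fold rule used 2-fold with at least 1 FPKM in either library. A count of 0 allows up to 3 fragments. Small RNA genes, other hosts and neighbouring or overlapping protein-coding genes were found by the positions in the deposited table. Exons and shares of exon overlap came from GENCODE release 44, matched by gene identifier, and gene lengths in the table differ from it for some hosts. Promoters came from RefSeq.

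The rule for genes named in the text covered FKBP9, all members, small RNA genes with a fragment within them, of which those with few fragments are given in sums only, cell type markers, protein-coding genes that start within 1 kilobase on the other strand or overlap them, and list genes that were called or had the most fragments. The members and lists were chosen with earlier results of these data known. SNHG genes under older names, and the groups by small RNA kind, start letters, level and length, were added after the values were seen. The alternatives were other additions to FPKM, other scalings and minimums, negative binomial tests with an assumed dispersion, and sums with small RNAs or without SNHG5.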

Additional observations from a re-analysis of the deposited data

How the results depend on the processing

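With 1 library per condition no library could be left out, and p-values and intervals cover counting error only. No paired analysis was possible because each condition has 1 library. The number of host genes past 2-fold in the direction higher was 1 with no minimum level, SNHG9 with 3 and 7 fragments, and 0 otherwise. The log2 ratio of summed fragments was -0.036 without SNHG5 and 0.01 with it. The exact binomial test called 2 host genes higher with scaling by the median ratio, SNHG6 and SNHG5. A minimum of 50 fragments gave 2 called lower, SNHG12 and SNHG10. The conditional negative binomial test called 0 higher and 0 lower at a dispersion of 0.04 and 0 and 0 at 0.01, with 0 of the tested members under an unadjusted p of 0.05 at either, against 5 and 58 of all 17105 genes called. In the other alternatives, 24 values of the summary results and 103 ratios of single genes, counts stayed within 1.5 times, ratios of a gene or of the sum within their counting interval, and the median within the intervals of the middle genes, and FKBP9 was at -3.16 with 1 added to FPKM. The median of members without an exon overlap rests on SNHG18 alone.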
